A study of Mus musculus with 6 samples.

Results

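Transcripts of 10 aldehyde dehydrogenase genes, Aldh1a1, Aldh1a2, Aldh1a3, Aldh1a7, Aldh1b1, Aldh2, Aldh3a1, Aldh3a2, Aldh3b1 and Aldh7a1, were compared between mouse pancreatic tumours with and without Msi1. They are 10 of 18193 genes named on the array and were taken as a list by symbol, each through its probe set of highest mean intensity among those annotated to that gene alone. The 10 genes have 18 such probe sets in all, of 45037 probe sets tested. RNA came from pancreatic tumour cells of C57BL/6 mice at 11 weeks of age, with 1 Affymetrix array per sample. All 6 samples carried the alleles that the labels spell KeasG12D/+, p53f/f and ptf1a-Cre. The genotype reads wt in 3 samples, named wild-type below for their Msi1 alone, and Msi1 -/- in the other 3, named Msi1-null. The product of Msi1, Musashi, binds RNA and is known from stem and progenitor cells. Ptf1a drives Cre in pancreatic progenitors, so the host's stromal and immune cells in a tumour are not expected to recombine the conditional alleles. The labels state neither a cell sort nor clearly that each sample came from its own animal. The spread behind each p-value may therefore be technical in part.

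Aldehyde dehydrogenases oxidise aldehydes to carboxylic acids with NAD or NADP as cofactor. Enzymes of the 1A subfamily turn retinaldehyde into retinoic acid, the ligand of nuclear receptors that set cell fate in the developing pancreas and in many epithelia. The mitochondrial enzymes clear acetaldehyde and other small aldehydes, and the class 3 enzymes oxidise fatty and aromatic aldehydes, including products of lipid peroxidation. High aldehyde dehydrogenase activity is widely used as a marker of stem and progenitor cells, also in pancreatic tumours.

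Aldh1a1 and Aldh1a7 are neighbouring genes on chromosome 19 and close paralogs, and their transcripts had the most similar pattern over arrays of any pair within the 1A subfamily here. Their sequences before the transcription start are therefore shown, together with that of Aldh1a2 as a 1A gene with another pattern. Promoters were taken from RefSeq for GRCm38.p6, in which 6 of the 10 genes were matched. Each line gives the 150 bases before a start, from position -150 to -1, 5′ to 3′ on the strand of the gene.

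Aldh1a1, chr19:20601818-20601967, plus strand: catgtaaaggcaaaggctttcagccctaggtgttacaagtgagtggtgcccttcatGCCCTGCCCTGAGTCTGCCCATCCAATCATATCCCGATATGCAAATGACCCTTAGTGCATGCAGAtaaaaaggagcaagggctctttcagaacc
Aldh1a7, chr19:20727557-20727706, minus strand: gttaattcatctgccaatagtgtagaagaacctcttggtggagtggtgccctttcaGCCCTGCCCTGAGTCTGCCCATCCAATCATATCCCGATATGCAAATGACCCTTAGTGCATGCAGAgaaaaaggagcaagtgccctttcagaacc
Aldh1a2, chr9:71215639-71215788, plus strand: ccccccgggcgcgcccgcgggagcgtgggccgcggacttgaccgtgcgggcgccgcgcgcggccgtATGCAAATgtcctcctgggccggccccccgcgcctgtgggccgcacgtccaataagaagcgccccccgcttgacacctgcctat

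Capitals in the Aldh1a1 and Aldh1a7 lines mark the longest run that both promoters share, 65 bases from position -94 to -30 in each. Without gaps, 94 of the last 100 bases before the start were identical, against 129 of the last 250 bases. The shared run holds a CCAAT box and the octamer ATGCAAAT, which starts at position -56 in both genes. The octamer is marked in capitals in the Aldh1a2 promoter, where it starts at position -84, and that promoter shares no run longer than 10 bases with either gene. The motif ATAAAAA was found in the Aldh1a1 promoter and not in that of Aldh1a7. Among 32851 RefSeq promoters of 300 bases, searched on both strands, 1.74% hold the octamer, 37.4% the letters CCAAT and 6.86% the letters ATAAAAA. The 3 motifs were chosen after reading these sequences, and a match is a description of letters in this window. A further Aldh1a1 start in RefSeq shares no run longer than 8 bases with Aldh1a7. The probe sequences of the array were not used here, so how far the Aldh1a1 and Aldh1a7 probe sets read the other transcript was not tested, and their values are uncertain in that respect.

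Values are the deposited linear intensities, and differences are Msi1-null minus wild-type on the log2(intensity + 1) scale. Changes of transcripts near the array background may be understated. Array background was set from 82 probe sets for receptors of smell and taste, as their 95th percentile in each array, and lay between 162 and 190.2 in the 6 arrays. All 10 ductal and tumour epithelium markers, among them Krt19 and Epcam, were above background in every array. So were all 10 macrophage and all 10 fibroblast markers, and the samples thus held epithelium with stroma. The epithelial list does not separate ducts from tumour, and 11 of 12 acinar and 5 of 6 islet markers were also above background in every array. Xist and Eif2s3y set wild-type replicate 3 apart as the array with a female pattern, so the wild-type arrays were not all from the same animal. At its brightest probe set Msi1 had a log2 difference of -0.29 ± 0.22 (SE) and was above background in 2 of 6 arrays. Whether that probe set reads the deleted sequence was not examined, and it is no check of the genotype. In bulk samples fewer cells of a type and less RNA per cell cannot be told apart.

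None of the 10 genes passed the test between the genotypes. With limma, 0 of 10 had an adjusted p under 0.05, as did 0 of all 45037 probe sets (0%), and each of the 10 had an adjusted p of 0.9997. At an unadjusted p under 0.05 there was 1 of the 10 genes, Aldh1a7, beside 1355 probe sets or 3.01% of all (1.55% lower and 1.46% higher in Msi1-null arrays). The groups did not overlap for 1 of the 10, again Aldh1a7, beside 7.79% of all probe sets, or 3.71% with lower and 4.08% with higher values in Msi1-null arrays. The mean was higher in Msi1-null arrays for 7 genes and lower for 3. Log2 differences ran from -1.03 to 0.58 with a median of 0.11, against a median of 0.002 over all probe sets. As a size without sign the median difference was 0.21 for the 10 genes and 0.05 over all probe sets. These sets are not alike in brightness or spread. A mean log2 value of at least 8 was reached by 8 of the 10 genes and by 15775 of the 45037 probe sets. The median SD of the log2 value over the arrays was 0.44 for the 10 genes, 0.09 over all probe sets and 0.15 over those 15775. The part of brightness and spread in the larger size was not tested.

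Markers of acinar cells, the enzyme-secreting cells of the normal pancreas, differed in mean between the genotypes. All 12 measured markers had a lower mean in Msi1-null arrays, with a median log2 difference of -1.42. In limma 0 of the 12 passed after adjustment, and 11 had an unadjusted p under 0.05, beside 3.01% of all probe sets. The groups did not overlap for 4 of the 12, beside 7.79% of all probe sets. Their score, the mean log2 deviation of a list's genes from their mean over the 6 arrays, was 0.47, 1.25 and 0.51 in wild-type arrays and -1.62, -0.96 and 0.34 in Msi1-null arrays. Summed intensities ran from 43629 to 70546 over wild-type and from 14313 to 42431 over Msi1-null samples, and 11 of the 12 were above background in every array. The part of acinar cells in the differences of the 10 genes was not tested.

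**Figure D1:**
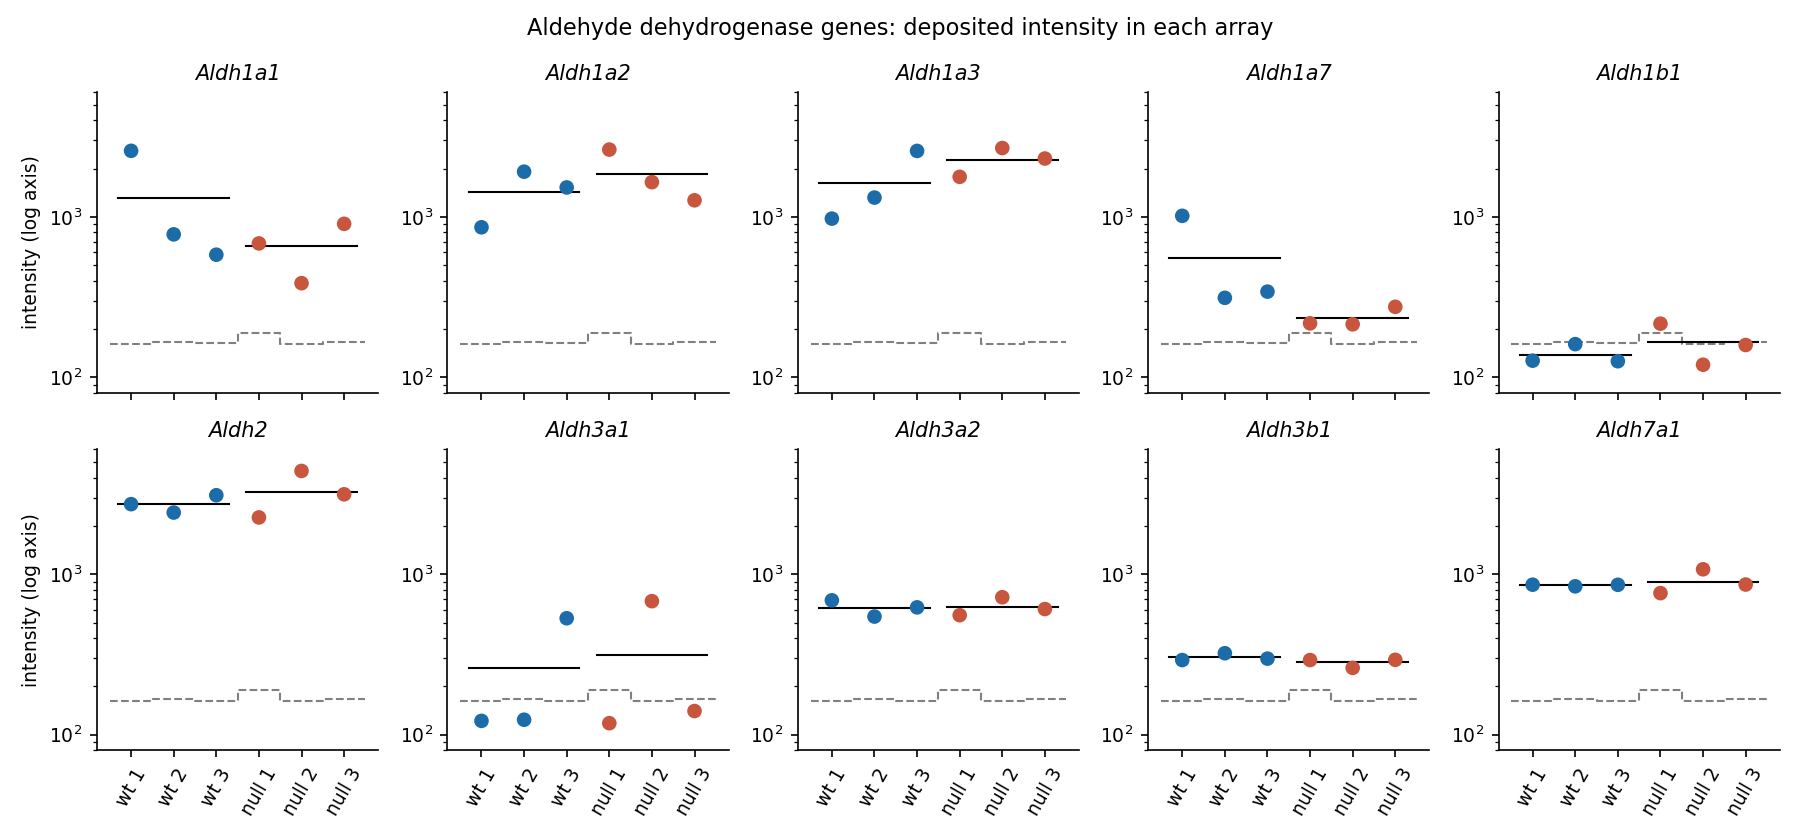
Deposited intensity of each gene (log axis) in the 3 wild-type (blue) and 3 Msi1-null (red) arrays. Black lines are group means (n = 3) and the dashed line is the array background. Aldh1a1 and Aldh1a7 are high in wild-type replicate 1, at 2579.7 and 1015, and Aldh3a1 is above background in wild-type replicate 3 and Msi1-null replicate 2.

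The spread over the 6 arrays was wide for the 1A genes and for Aldh3a1. The SD of the log2 value was 1.17 for Aldh3a1, 0.92 for Aldh1a1, 0.83 for Aldh1a7, 0.58 for Aldh1a3 and 0.54 for Aldh1a2. Among the 15775 probe sets with a mean log2 value of at least 8, whose median SD was 0.15, the 4 1A genes lay at percentiles 99.2, 99.0, 97.5 and 97.0 in that order. Aldh2 lay at percentile 90, and Aldh3a2, Aldh7a1 and Aldh3b1 lay at 54.1, 54.8 and 21.6, while Aldh3a1 was too dim on average to be ranked there. Within a genotype the SD of Aldh1a7 was 0.94 over wild-type and 0.20 over Msi1-null arrays, and that of Aldh2 was 0.18 and 0.48. For Aldh1a7 the wild-type spread rests on replicate 1, at 1015 against 313 and 342. Its Msi1-null values lay not far above background.

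Aldh1a1, the retinaldehyde dehydrogenase most often linked to stem cell assays, read 2579.7, 778 and 581 in wild-type replicates 1, 2 and 3 and 683, 386 and 905 in Msi1-null replicates 1, 2 and 3. One wild-type array stood far above the other 5, and the groups overlapped. The means were 1313 ± 1101 and 658 ± 261 in this order (SD, n = 3). On the log2 scale they differed by -0.76 ± 0.56 (SE), with a 95% interval from -2.07 to 0.54. Without wild-type replicate 1 it was -0.12.

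Aldh1a7, a rodent relative of Aldh1a1, read 1015, 313 and 342 in the wild-type arrays and 217, 214 and 275 in the Msi1-null arrays. All 3 Msi1-null values lay below all 3 wild-type values. The means were 557 ± 397 and 235 ± 34.0 (SD, n = 3). On the log2 scale the difference was -1.03 ± 0.42 (SE), with a 95% interval from -2.0 to -0.06 (limma, unadjusted p = 0.0408 and adjusted p = 0.9997). Wild-type replicate 1 again carried much of it, and without that array the difference was -0.48. The Msi1-null values lay not far above the array background of 162 to 190.2.

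Beside the high Aldh1a1 and Aldh1a7 values, wild-type replicate 1 also had the highest score of mesothelial markers. It was 0.34 in that array and between -0.12 and 0.02 in the others. This array stood apart on other lists as well. It had the lowest score for smooth muscle (-0.86), B cells (-0.69), dendritic cells (-0.43), endothelium (-0.34), adipocytes (-0.29) and T and NK cells (-0.27). Over the 6 arrays Aldh1a1 had an r of 0.78 with the mesothelial and -0.88 with the T and NK cell score, and Aldh1a7 an r of 0.84 and -0.85. With the dendritic cell score the r was -0.73 for Aldh1a1 and -0.89 for Aldh1a7. The summed intensity of the 7 mesothelial markers ran from 3437 to 6083 across wild-type arrays and from 2009 to 4661 across Msi1-null ones. The sum is mostly Msln, which epithelial tumours also express. Of the 7 markers 3 were above background in every array and 2, Lrrn4 and Bnc1, in none. Hepatocyte markers were measured because liver is rich in both enzymes, and 6 of 7, Alb among them, were above background in no array, while Apoa1 was above it in all. The part of any of these cell types in the Aldh1a1 and Aldh1a7 values was not tested.

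Aldh1a2, the main retinoic acid forming enzyme of the embryo and of mesenchymal and mesothelial cells, read 861, 1912 and 1525 in wild-type arrays and 2626, 1646 and 1268 in Msi1-null arrays. Its lowest value was in the array with the highest Aldh1a1 value, and the groups overlapped. The log2 difference was 0.38 ± 0.35 (SE; 95% interval -0.44 to 1.19). Leaving out wild-type replicate 1 gave 0.05, and leaving out Msi1-null replicate 1 gave 0.09. The dendritic cell score was likewise lowest in wild-type replicate 1, at -0.43, and highest in Msi1-null replicate 1, at 0.40. The same arrays were the ends of the smooth muscle score, at -0.86 and 1.39, and of the endothelial score, at -0.34 and 0.37. All 6 smooth muscle and all 7 endothelial markers were above background in every array. Over the 6 arrays Aldh1a2 had an r of 0.96 with the dendritic cell, 0.83 with the smooth muscle and 0.82 with the endothelial score. With the fibroblast score its r was 0.34, and with the mesothelial score it was -0.77. Of the 6 dendritic cell markers 1, Itgax, was above background in every array, and the summed intensity was 1084 to 2138 over the wild-type and 1628 to 2902 over the Msi1-null samples. The part of any of these cell types in the Aldh1a2 values was not tested.

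Aldh1a3, a retinaldehyde dehydrogenase of epithelia and of many carcinomas, read 975, 1319 and 2576 in wild-type arrays and 1776, 2685 and 2309.7 in Msi1-null arrays. The pair of wild-type replicates 1 and 2 lay below every Msi1-null array, while wild-type replicate 3 lay among them. The means were 1624 ± 843 and 2257 ± 457 (SD, n = 3), and the log2 difference was 0.58 ± 0.34 (SE; 95% interval -0.22 to 1.37). It was 0.97 without wild-type replicate 3, the array with the female pattern, and 0.27 without wild-type replicate 1. The other probe sets of Aldh1a3 pointed the same way, with 0.56 ± 0.20 at the brighter and 0.37 ± 0.26 at the dimmer of them (SE). At the brighter one the values were 371, 385 and 533 against 495, 655 and 753, with an unadjusted p of 0.0244 in limma and an adjusted p of 0.9997.

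**Figure D2:**
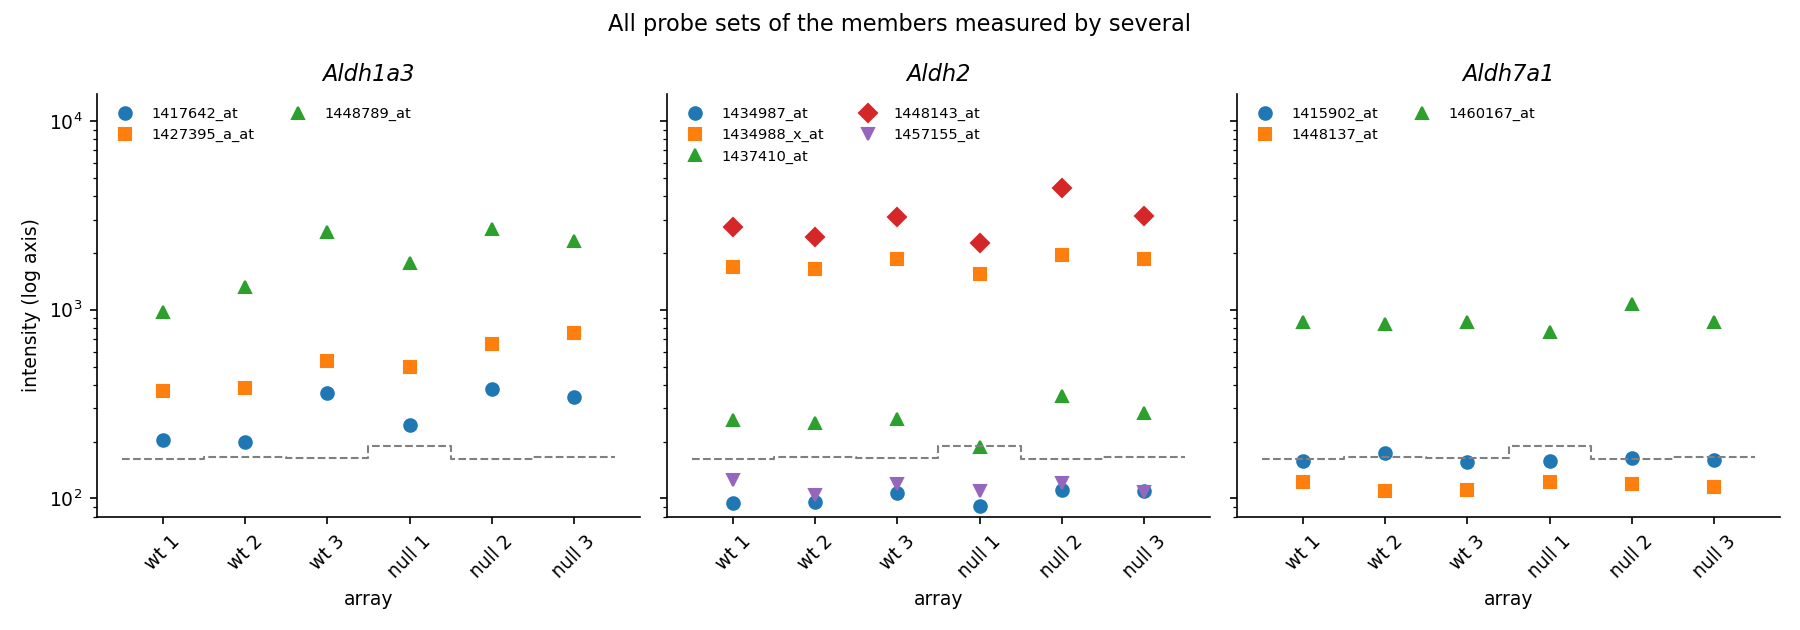
Intensity (log axis) of every probe set of Aldh1a3, Aldh2 and Aldh7a1, the members with more than 1, in each array. Markers are probe sets and the dashed line is the array background. The 3 Aldh1a3 probe sets are lowest in wild-type replicates 1 and 2, while 2 of 5 Aldh2 probe sets and 1 of 3 for Aldh7a1 stay at or below background throughout.

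Aldh2, the mitochondrial enzyme that clears acetaldehyde, read 2735, 2424 and 3108 in wild-type arrays and 2261, 4405 and 3150.5 in Msi1-null arrays. The lowest and the highest of the 6 values were both Msi1-null. The means were 2756 ± 342 and 3272 ± 1078 (SD, n = 3), and the log2 difference was 0.20 ± 0.23 (SE; 95% interval -0.34 to 0.74). Without Msi1-null replicate 2 it was -0.04, and without Msi1-null replicate 1 it was 0.44. A further bright probe set of Aldh2 differed by 0.03 ± 0.12 (SE). Its highest and lowest values, 1940.1 and 1544, were in the same arrays.

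Aldh1b1, a mitochondrial relative of Aldh2 that is known from pancreatic progenitor cells, was dim. It read 127, 161 and 126 in wild-type arrays and 216, 119.8 and 159 in Msi1-null arrays. Msi1-null replicate 1 was the single array above background, and the log2 difference was 0.22 ± 0.20 (SE), or 0.01 without that array. At this signal a difference between the genotypes was not detectable.

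Aldh7a1, which acts in lysine breakdown and on lipid aldehydes, was even across wild-type arrays and less so across Msi1-null arrays. It read 861, 841 and 859.7 in wild-type arrays and 763, 1074 and 863 in Msi1-null arrays. The wild-type values lay between the Msi1-null ones, and the log2 difference was 0.06 ± 0.14 (SE; 95% interval -0.27 to 0.39). It was -0.07 without Msi1-null replicate 2.

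Aldh3a1, the class 3 enzyme of cornea and stomach, had a clear signal in some arrays of each genotype and none in others. It read 532 in wild-type replicate 3 and 679.9 in Msi1-null replicate 2. In the other 4 arrays it read 122, 124, 118 and 140.5, all below background. Each genotype thus had 1 array with a clear signal. The groups differed by 0.16 ± 0.78 on the log2 scale (SE; 95% interval -1.67 to 1.99). This was -0.64 with Msi1-null replicate 2 left out and 0.86 with wild-type replicate 3 left out. Adh7, an alcohol dehydrogenase of stomach that also oxidises retinol, was above background in the same pair of arrays, at 205 and 311, and read between 119 and 130.0 in the others. Adh7 was singled out after its values were seen. The score of gastric type epithelium markers was 0.29 and 0.76 in that pair of arrays, but it was also 0.50 in Msi1-null replicate 3, where Aldh3a1 was below background.

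Aldh3a2, the microsomal fatty aldehyde dehydrogenase, read 688, 545 and 622 in wild-type arrays and 556, 719 and 607 in Msi1-null arrays. The means of 619 ± 71.6 and 627 ± 83.4 (SD, n = 3) differed by less than the spread of either group. Their log2 difference was 0.02 ± 0.14 (SE; 95% interval -0.31 to 0.34). Aldh3b1, a membrane-bound class 3 enzyme, read 292, 322 and 298 against 292, 261 and 293. Its log2 difference was -0.11 ± 0.09 (SE; 95% interval -0.32 to 0.10), with overlap between the groups. Without wild-type replicate 1 its groups did not overlap, a state then shared by 15.7% of all probe sets.

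**Figure D3:**
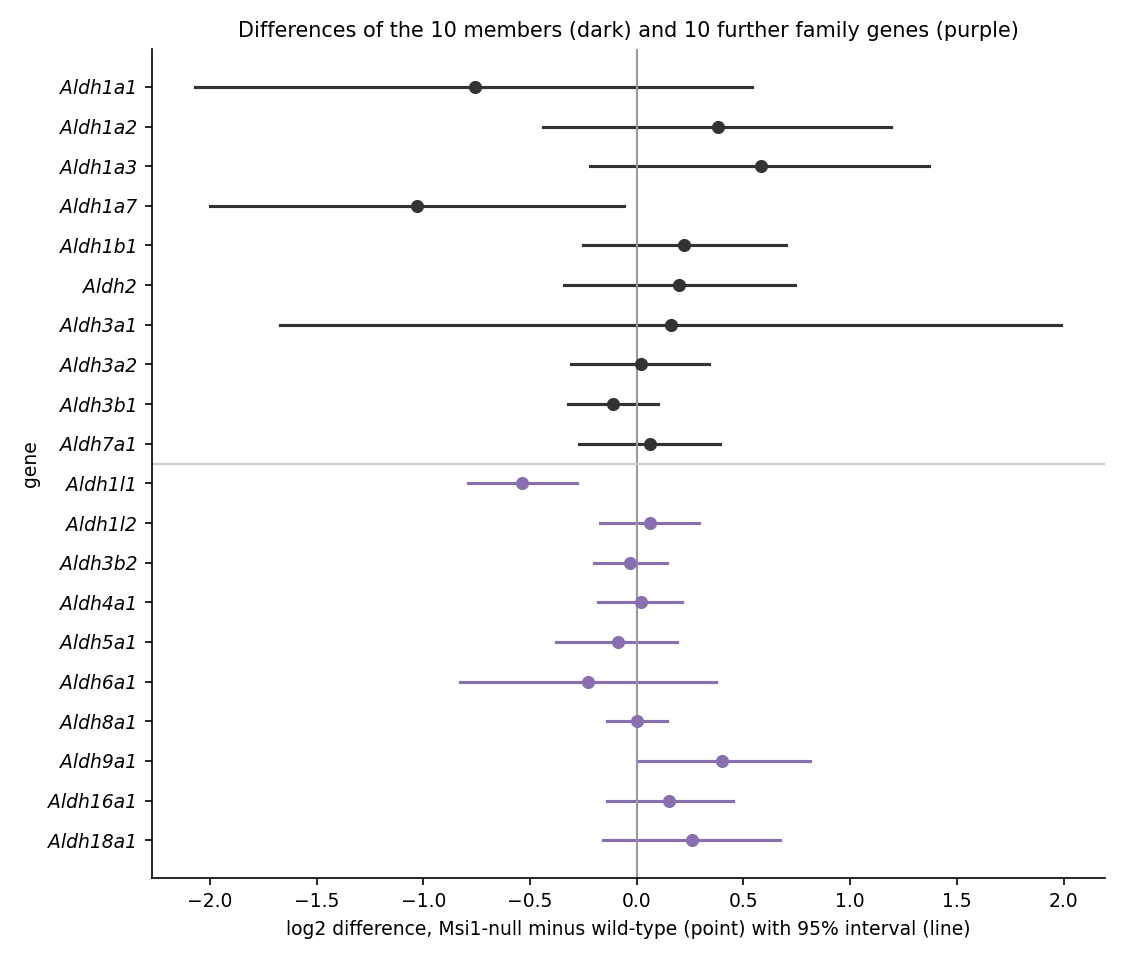
Log2 difference, Msi1-null minus wild-type (points), with the 95% interval of limma (lines), for the 10 genes (dark) and 10 further aldehyde dehydrogenase genes (purple). Among the 10 genes the interval of Aldh1a7, from -2.0 to -0.06, is the one that does not reach 0, and that of Aldh3a1 is the widest.

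Leaving out 1 array at a time moved the differences of the 1A genes and Aldh3a1 most. The sign held in all 6 such fits for Aldh1a1 (-1.19 to -0.12), Aldh1a7 (-1.33 to -0.48), Aldh1a2 (0.05 to 0.62), Aldh1a3 (0.27 to 0.97), Aldh1b1 (0.01 to 0.43) and Aldh3b1 (-0.14 to -0.05). It turned for Aldh2, Aldh3a1, Aldh3a2 and Aldh7a1. Without Msi1-null replicate 1 the groups of 3 genes did not overlap, Aldh1a7, Aldh2 and Aldh7a1, as did those of 23.7% of all probe sets. Without wild-type replicate 3 this held for Aldh1a3 and Aldh1a7, and for 14.9% of all probe sets.

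**Figure D4:**
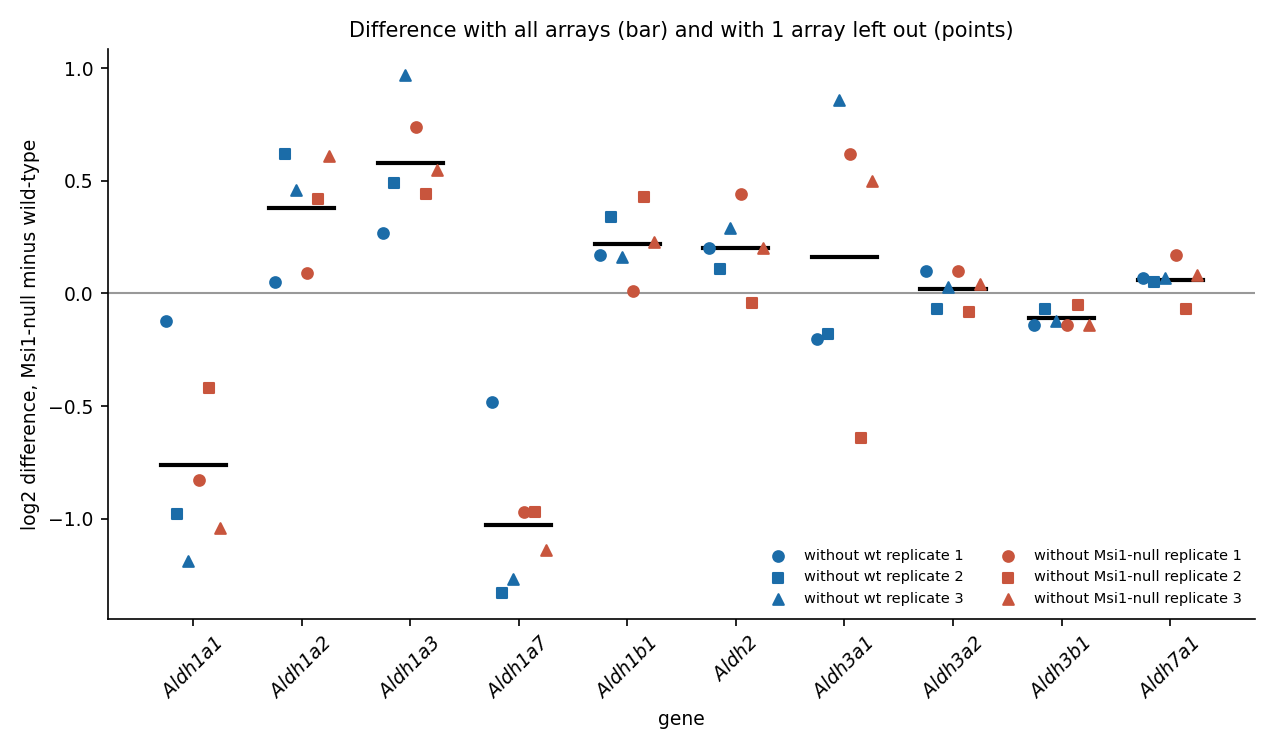
Log2 difference, Msi1-null minus wild-type, of each gene with all 6 arrays (black bar) and with 1 array left out (points, blue for a wild-type and red for an Msi1-null array). Aldh1a1 moves from -0.76 to -0.12 without wild-type replicate 1, and Aldh3a1 runs from -0.64 to 0.86.

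The 10 genes fell into a few patterns over the 6 arrays, which are given as a description because all points share the same arrays. Aldh1a1 and Aldh1a7 ran together (Pearson r = 0.90, 6 arrays). Aldh1a1 ran opposite to Aldh1a3 (r = -0.84) and Aldh1a2 (r = -0.70), while Aldh1a2 and Aldh1a3 had an r of 0.33. Aldh2 ran with Aldh7a1 (r = 0.94), Aldh3a1 (r = 0.82) and Aldh3a2 (r = 0.79), and opposite to Aldh3b1 (r = -0.79) and Aldh1b1 (r = -0.73). Msi1-null replicates 1 and 2 lay at opposite ends of this second pattern, with Aldh2 at 2261 and 4405.

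The same arrays lay at opposite ends of the cell type scores. The macrophage score was 0.54 in Msi1-null replicate 1 and -0.61 in Msi1-null replicate 2, and the fibroblast score was 0.33 and -0.31. The ductal and tumour epithelium score was -0.41 and 0.28, and the gastric type score -1.07 and 0.76. The islet cell score was -0.76 and 0.83. Wild-type arrays lay between these ends for each of these lists. The summed macrophage markers were 27747 to 34720 over the wild-type and 21501 to 43122 over the Msi1-null samples. Those of ductal and tumour epithelium ran from 53666 to 61013 and from 49393 to 71555. The part of these cell types in the values of Aldh2, Aldh3a1, Aldh3a2 and Aldh7a1 was not tested. The 3' to 5' signal ratio of Gapdh, a sign of RNA quality, was 1.38 in Msi1-null replicate 1 and between 1.55 and 1.86 in the other 5 arrays.

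**Figure D5:**
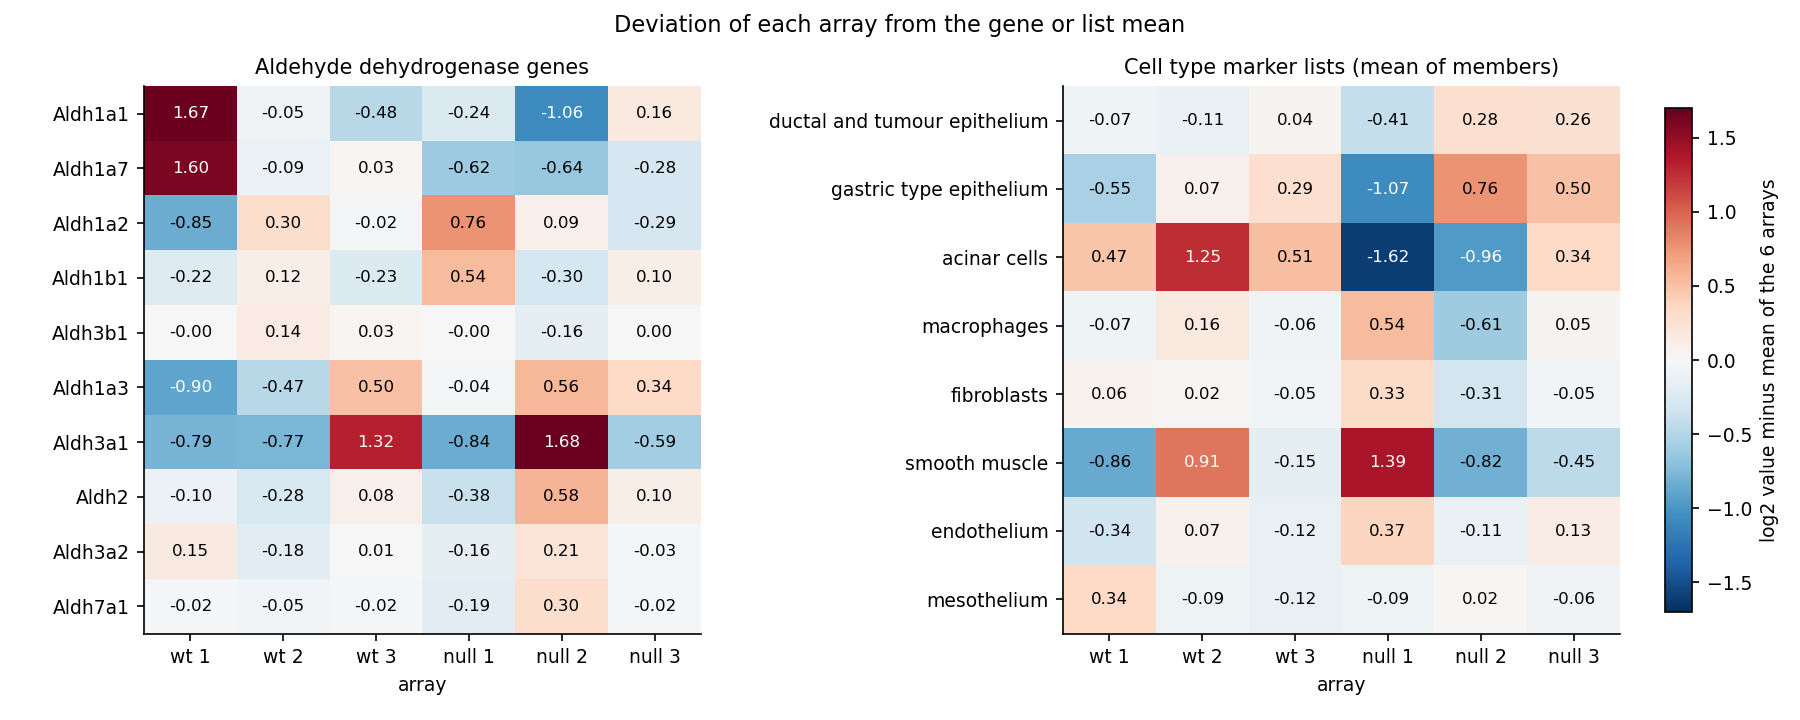
Deviation of each array (columns) from the mean of the 6 arrays, as log2 values, for the 10 genes (left) and as the mean over the members of 8 cell type marker lists (right). Aldh1a1 and Aldh1a7 are high in wild-type replicate 1, and Aldh2 is lowest in Msi1-null replicate 1 and highest in Msi1-null replicate 2, where the macrophage score is 0.54 and -0.61.

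For the 3 genes with the largest SD, the genes of most similar pattern were taken from 1366 genes with a mean log2 value of at least 8 and an SD of at least 0.3. For Aldh1a1 they were Slit3, a secreted guidance protein, Fam102b, and Lama2, a laminin chain of mesenchymal basement membrane, with r of 0.985, 0.98 and 0.972. Lama2 was at 733 in wild-type replicate 1, and elsewhere from 264 to 361. For Aldh1a7 they were Slc6a2, the noradrenaline transporter, Pcbp3, an RNA-binding protein, and Sorbs2, a cytoskeletal adaptor, with r of 0.986, 0.984 and 0.981. Slc6a2 was at 608 in wild-type replicate 1, and elsewhere from 259 to 321. For Aldh3a1 they were Tfr2, a transferrin receptor, Stc1, the hormone stanniocalcin, and Sox17, a transcription factor of endoderm and endothelium, with r of 0.936, 0.913 and 0.905. Sox17 read 370.4 and 748 in the pair of arrays with Aldh3a1 signal and between 239 and 261 elsewhere. Many genes can reach such an r over 6 arrays.

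Of 11 further aldehyde dehydrogenase genes 10 were measured by a probe set of their own, and 0 passed the test in either direction. The median difference over these 10 was 0.01. Aldh1l1, a folate enzyme that oxidises formyltetrahydrofolate, had the smallest unadjusted p in the whole family. It read 1026, 921 and 868 in wild-type arrays and 672, 658 and 608 in Msi1-null arrays. All Msi1-null values lay below all wild-type values, with a spread within each genotype that was small beside the gap. The log2 difference was -0.54 ± 0.11 (SE), with an unadjusted p of 0.00155 in limma and an adjusted p of 0.9997. It stayed between -0.59 and -0.47 when any 1 array was left out. Its other probe set was below background in every array.

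Aldh9a1, which oxidises aminoaldehydes in carnitine synthesis, read 851, 1255 and 1111 in wild-type and 1538, 1484 and 1204 in Msi1-null arrays. The log2 difference was 0.40 ± 0.17 (SE), and 0.38 ± 0.16 at its other probe set. Aldh18a1, which makes the proline precursor pyrroline carboxylate, differed by 0.26 ± 0.18 at its brightest probe set (SE), and by 0.05 without wild-type replicate 1. Its 5 probe sets, which read the same gene and are not independent, ranged from 0.12 to 0.26. The groups did not overlap at 2 of them, beside 7.79% of all probe sets. One of these read 187, 223 and 214 in wild-type and between 246 and 252 in Msi1-null arrays, and differed by 0.26 ± 0.08 (SE; limma, unadjusted p = 0.0161 and adjusted p = 0.9997). Aldh16a1 differed by 0.15 ± 0.12 (SE). Aldh6a1 of valine breakdown, Aldh5a1 of GABA breakdown and Aldh4a1 of proline breakdown differed by -0.23 ± 0.26, -0.09 ± 0.12 and 0.02 ± 0.08 (SE). Aldh3b2 differed by -0.03 ± 0.07 (SE). Aldh1l2 was above background in 1 array and Aldh8a1 in none.

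Genes around the retinoic acid step gave no call either. Of 14 measured genes of retinol handling and retinoic acid synthesis 0 passed in either direction, with a median difference of 0.09. Stra6, the retinol transporter of the cell surface, read 209.8, 262 and 229 in wild-type arrays and 288, 278 and 277 in Msi1-null arrays. These groups did not overlap, and the log2 difference was 0.27 ± 0.10 (SE; limma, unadjusted p = 0.0242 and adjusted p = 0.9997). Rdh11, a retinal reductase, differed by 0.19 ± 0.09, and Lrat, which esterifies retinol, was below background in every array. Rdh10, which makes the retinaldehyde that the 1A enzymes use, was bright in all arrays, from 3266 to 4499.

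Of the 6 retinoic acid receptors 0 passed, with a median difference of -0.03. Rxra, Rarb and Rarg differed by -0.12 ± 0.14, -0.08 ± 0.15 and -0.03 ± 0.09 (SE), with Rarb above background in 3 of 6 arrays. Of 10 genes of retinoic acid breakdown and response 0 passed, with a median of -0.02. Cyp26b1, which degrades retinoic acid, read 332, 229 and 236 in wild-type and 220.5, 201 and 207 in Msi1-null arrays, and differed by -0.32 ± 0.14 on the log2 scale (SE). Without wild-type replicate 1, the array of high Aldh1a1, it was -0.15. Hoxb4, a homeobox gene that responds to retinoic acid, differed by 0.08 ± 0.07 (SE), and Stra8 was below background in every array.

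Enzymes that share substrates with the aldehyde dehydrogenases gave 0 calls as well, among 14 alcohol dehydrogenases and aldehyde reductases, 10 genes of glutathione conjugation and peroxide removal, and 11 regulators and targets of Ahr and Nrf2. Their median differences were -0.06, -0.01 and 0.00. Akr7a5, an aldehyde reductase, and Cyp2e1, an ethanol-oxidising cytochrome, differed by -0.12 ± 0.11 and -0.40 ± 0.34 (SE), and Akr1c14 was below background in every array. Cyp2e1 was above background in 2 of 6 arrays and read 357 in wild-type replicate 2 and from 118 to 198 elsewhere. Leaving out wild-type replicate 2 gave a difference of 0.00, and leaving out wild-type replicate 1 gave -0.79. Gstp1, a glutathione transferase, and Gclc and Gclm, which make glutathione, differed by 0.11 ± 0.12, -0.19 ± 0.24 and -0.08 ± 0.14 (SE). Tiparp, an Ahr target, and Nqo1, an Nrf2 target, differed by -0.15 ± 0.11 and -0.12 ± 0.11 (SE). Nqo1 was above background in 1 of 6 arrays, and Ahrr was below background in every array. Gsta4, a transferase for lipid aldehydes that was named after its values were seen, was lowest at 2624 in Msi1-null replicate 1 and highest at 6905 in Msi1-null replicate 2, as was Aldh2.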

How the data were processed

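Biotin-labelled RNA of 6 samples, 3 per genotype, was hybridised to Affymetrix arrays, per the labels. The intensity values deposited by the authors are linear, were made with GCRMA (background correction by probe sequence, quantile normalization and probe summary) per the submitters' processing notes, and no version or settings are given in the sources used here. Such correction can compress dim values. Of 45101 probe sets 64 controls were left out. The platform annotation gave 34945 probe sets 1 symbol, 932 several and 9160 none, and symbols were updated by Entrez identifier (34741 matched) with RefSeq of GRCm38.p6. Groups and replicate numbers came from the titles. The planned model was a limma 3.58.1 fit (R 4.3.3, lmFit, eBayes with trend) of genotype on log2(intensity + 1) over all probe sets, with Benjamini-Hochberg adjustment at 0.05, tested on simulated data. Alternatives were filters at a mean of 7 or 8, other normalizations, a pseudocount of 16, other priors, array weights, a replicate block, averaged probe sets and each array left out.

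The genes and lists were chosen with earlier results of these data known. Named were all 10 genes with all their probe sets, the further family genes, 3 genes per other list by smallest unadjusted p, and 3 genes of highest Pearson r for each of the 3 most variable members. Other names were chosen after values were seen. The number of arrays limits the precision. Same-numbered samples did not deviate together in every pair, so they were not treated as pairs.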

Additional observations from a re-analysis of the deposited data

How the results depend on the processing

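In every alternative 0 of the 10 genes and 0 of 69 measured pathway genes passed the threshold. The filters removed dim genes before the test, so not all of these were tested in each alternative. Over all probe sets the count was 0 except without Msi1-null replicate 1, so that it ran from 0 to 1 when 1 array was left out. The number of the 10 genes whose groups did not overlap ran from 1 to 3 and their median difference from -0.06 to 0.14 in those fits. Leaving out 1 array turned the sign for Aldh2 (-0.04 to 0.44), Aldh3a1 (-0.64 to 0.86), Aldh3a2 (-0.08 to 0.10) and Aldh7a1 (-0.07 to 0.17). With array weights Aldh1a2 differed by -0.01 in place of 0.38, and the cause was not tested. Of 168 alternative values for the 10 genes 8 changed sign. Under the filters, other priors and the replicate block a gene's difference equals the main one by design, so those values could not change. Apart from Aldh1a2 with array weights, every change of sign came from leaving out 1 array.

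With the replicate number as a block 0 genes passed. The median difference was 0.11, which such a balanced block leaves unchanged by design. In limma 2120 probe sets had an unadjusted p under 0.05 with the block, against 1355 without it. Deviations of same-numbered samples had correlations of 0.17, -0.09 and 0.28, and those of differently numbered samples from -0.26 to 0.06. A pairing was thus neither shown nor settled. The filter at 8 left 8 of the 10 genes. Signal over background limits Aldh1b1 and, in 4 arrays, Aldh3a1.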
